A study of Rattus norvegicus with 9 samples.

Results

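A family of 10 genes for proteins of the synaptic vesicle and its release machinery was followed in rat striatum after intracerebral hemorrhage. The members were chosen by name, as the rows of the count files whose gene ID was Syp, Sv2a, Slc17a7, Syn1, Syn2, Vamp2, Stx1a, Snap25, Syt1 or Cplx1. Of the 22890 gene IDs, 9 were members. Cplx1 was not analysed here. All 9 passed the filter on low counts and stood among the 14274 genes tested. Total RNA of striatal tissue was sequenced in 9 libraries, 3 in each of 3 groups. The Sham group is the control group by its name. The ICH group is labelled as intracerebral hemorrhage, a bleed into the brain tissue. The EDB group is labelled as edaravone dexborneol, a drug that pairs the radical scavenger edaravone with dexborneol. The labels give the rats' strain, sex and age for none of the groups, and likewise no time after the bleed, no dose and no method of making the hemorrhage. They do not say whether the EDB rats had a hemorrhage. Nor do they tie each library to its own rat, so p-values here measure the spread between these libraries, which may be technical.

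A nerve terminal stores transmitter in small vesicles, docks them at the active zone and fuses them with the plasma membrane when calcium enters. Fusion is driven by the SNARE complex, in which Vamp2 (synaptobrevin) on the vesicle zips together with Stx1a (syntaxin) and Snap25 on the plasma membrane, while Syt1 (synaptotagmin) senses calcium and complexins clamp the complex. The striatum is built mostly of GABAergic projection neurons and receives glutamatergic terminals from cortex and thalamus, whose cell bodies, and most of their mRNA, lie outside it.

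Totals ran from 14658110 to 17659936 counts per library, and the members' counts ran from 181 (Slc17a7, EDB replicate 3) to 13048 (Vamp2, Sham replicate 2). Counting error was not separated from the spread between libraries. Values are given as CPM, a gene's counts relative to the scaled size of the library. The labelled tissue matched its markers: the summed level of 10 striatal projection neuron genes, among them Drd1, Drd2, Ppp1r1b and Penk, was 10940 to 16498 CPM in Sham, 6812 to 8613 in ICH and 10236 to 11580 in EDB. Sham replicate 2 and EDB replicate 3 stood apart. The level of 8 choroid plexus genes was 8146 CPM in EDB replicate 3 and between 167 and 374 CPM in the other 8 libraries. On the second principal component, which held 19.1% of the variance, Sham replicate 2 lay at -36.3 and the other Sham libraries at 31.7 and 35.1. Beside several results below, the value without one or both of these libraries is given. In bulk tissue, fewer neurons and less RNA per neuron cannot be told apart.

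Promoters are shown for 4 of the members, Syp, Vamp2, Stx1a and Syn1. Of these, Syn1 overlapped between the groups in every comparison. Each promoter is the 250 bases before the RefSeq gene start in the build GRCr8, read 5′ to 3′ along the gene. RefSeq's table held this window for 9 of the 10 members, Cplx1 included. Capitals mark every match, on either strand, to a GC box (GGGCGG), a cAMP response element (CRE, TGACGTCA), its core (TGACG) or an EGR site (GCGTGGGCG). The windows lie at chrX:17536450-17536699 on the minus strand (Syp), chr10:54292539-54292788 on the plus strand (Vamp2), chr12:27306472-27306721 on the minus strand (Stx1a) and chrX:3725495-3725744 on the plus strand (Syn1).
Syp: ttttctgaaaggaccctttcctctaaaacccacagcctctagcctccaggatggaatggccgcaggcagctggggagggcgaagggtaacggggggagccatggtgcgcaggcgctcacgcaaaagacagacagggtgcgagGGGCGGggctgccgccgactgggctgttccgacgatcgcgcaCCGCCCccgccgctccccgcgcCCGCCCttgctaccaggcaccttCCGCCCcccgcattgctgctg
Vamp2: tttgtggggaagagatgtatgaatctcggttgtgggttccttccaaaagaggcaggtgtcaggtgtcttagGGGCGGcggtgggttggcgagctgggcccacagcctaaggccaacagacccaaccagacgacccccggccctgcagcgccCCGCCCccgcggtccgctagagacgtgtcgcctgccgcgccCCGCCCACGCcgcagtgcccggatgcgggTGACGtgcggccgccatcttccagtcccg
Stx1a: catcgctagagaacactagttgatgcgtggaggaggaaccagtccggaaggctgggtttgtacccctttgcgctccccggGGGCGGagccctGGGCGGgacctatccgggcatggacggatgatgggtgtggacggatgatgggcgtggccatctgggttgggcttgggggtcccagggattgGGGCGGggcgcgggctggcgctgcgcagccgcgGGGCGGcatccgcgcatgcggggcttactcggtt
Syn1: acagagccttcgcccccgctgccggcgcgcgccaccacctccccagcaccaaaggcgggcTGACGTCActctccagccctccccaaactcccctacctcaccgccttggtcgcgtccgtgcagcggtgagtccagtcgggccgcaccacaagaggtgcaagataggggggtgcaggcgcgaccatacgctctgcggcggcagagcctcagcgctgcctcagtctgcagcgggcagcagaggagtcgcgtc
GC boxes, the letters bound by Sp1-type factors, were in 7 of the 9 windows and in 57.5% of the 10853 windows of tested genes. Syp and Stx1a held 4 each and Vamp2 held 3. The window of Sv2a, not shown, held no match to any motif searched. The full CRE, bound by the CREB family, was in Syn1 alone among the 9, from base -190 to -183 before the start, and in 2.81% of the tested genes' windows. It contains the core on both strands. The core was in 3 of 9 windows and in 27.0% of the tested genes' windows. The EGR site of Vamp2, at -57 to -49 on the minus strand, overlaps a GC box and was in 0.967% of the tested genes' windows. RE1, the element of the neuronal gene repressor REST, was searched by its left and right parts (TTCAGCACC and GGACAGC). These were in 0 of the 9 windows and in 0.405% and 5.99% of the tested genes' windows. Only these exact letters within the 250 bases were sought, so variants of RE1 and sites outside the window would be missed. The median GC content was 68.0% for the members (58.0 to 69.6%) and 60.0% for the tested genes. These matches describe letters in a window, not occupied sites.

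In ICH against Sham, Stx1a and Vamp2 were lower, Syp was lower in every library without passing the test, and the other 6 members overlapped between the groups. Calls were made at 0.05 on the p-value of edgeR's quasi-likelihood test, adjusted by Benjamini and Hochberg's method across the 14274 genes. By this rule 2 of 9 members were called lower and 0 higher. Of all genes tested, 7.3% were called lower, 11.4% higher and 18.7% in either direction. With libraries scaled by their totals alone, the split of all calls moved from 1628 higher and 1042 lower to 2008 higher and 691 lower. All 9 members had a log2 fold change below 0, except that Syn2 and Syt1 lay above 0 with totals alone and Syn2 also without Sham replicate 2, without ICH replicate 1, or without Sham replicate 2 and EDB replicate 3. Their median was -0.36, and that of all genes was 0.01, with 49.3% of genes below 0. The groups did not overlap for 3 members, all lower in ICH, as for 15.4% of all genes.

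In EDB against ICH, 0 of 9 members were called, where 0.687% of all genes were called, 0.631% lower and 0.056% higher. At an unadjusted p under 0.05 there were 2, Syp and Sv2a, both higher in EDB, where 16.2% of all genes were at such a p. DESeq2 called Syp, among 696 genes it called in this comparison, against 98 by edgeR. Syp, Sv2a and Vamp2 were higher in every EDB library than in every ICH library, as were 11.6% of all genes. In EDB against Sham, 1 of 9 was called, Stx1a, which was lower in EDB. Of all genes, 7.66% were called there, 2.71% lower and 4.95% higher. The 3 comparisons share libraries, since each group enters 2 of them. The members' median log2 fold change was 0.07 in EDB against ICH and -0.20 in EDB against Sham, and the all-gene medians were -0.03 and -0.01. Without Sham replicate 2 and EDB replicate 3, these members' medians were 0.23 and 0.0018. The EDB against ICH median was 0.20 without EDB replicate 3 and 0.20 without ICH replicate 3. The EDB against Sham median was -0.03 without Sham replicate 2 and -0.12 without EDB replicate 3.

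**Figure D1:**
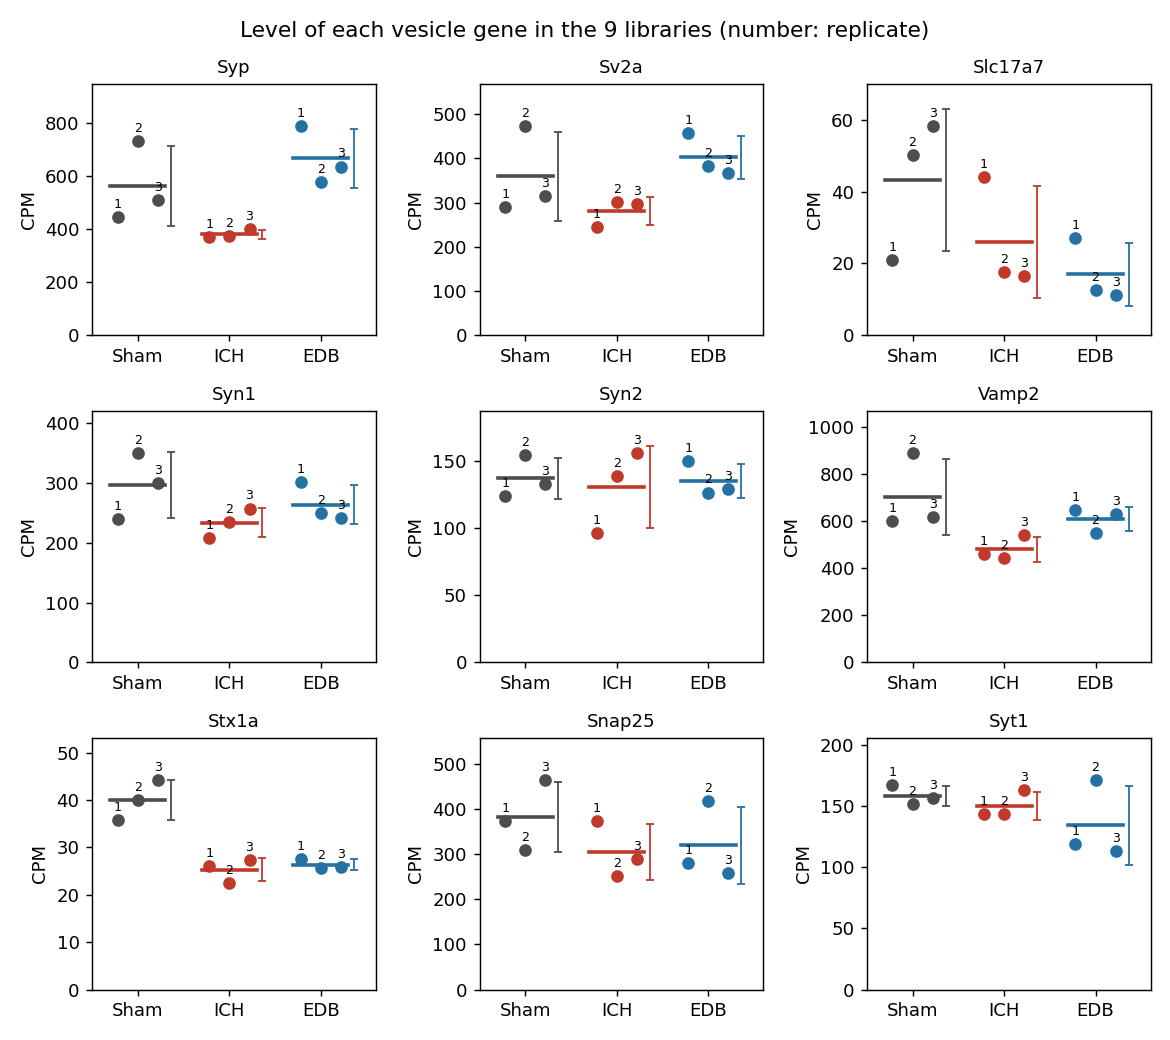
Level of the 9 members in CPM (vertical axes, from 0) in the libraries of the Sham, ICH and EDB groups. Points are single libraries numbered by replicate, the horizontal bar is the group mean and the side bracket is 1 SD (n = 3); all ICH points of Syp, Vamp2 and Stx1a lie below all Sham points.

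**Figure D2:**
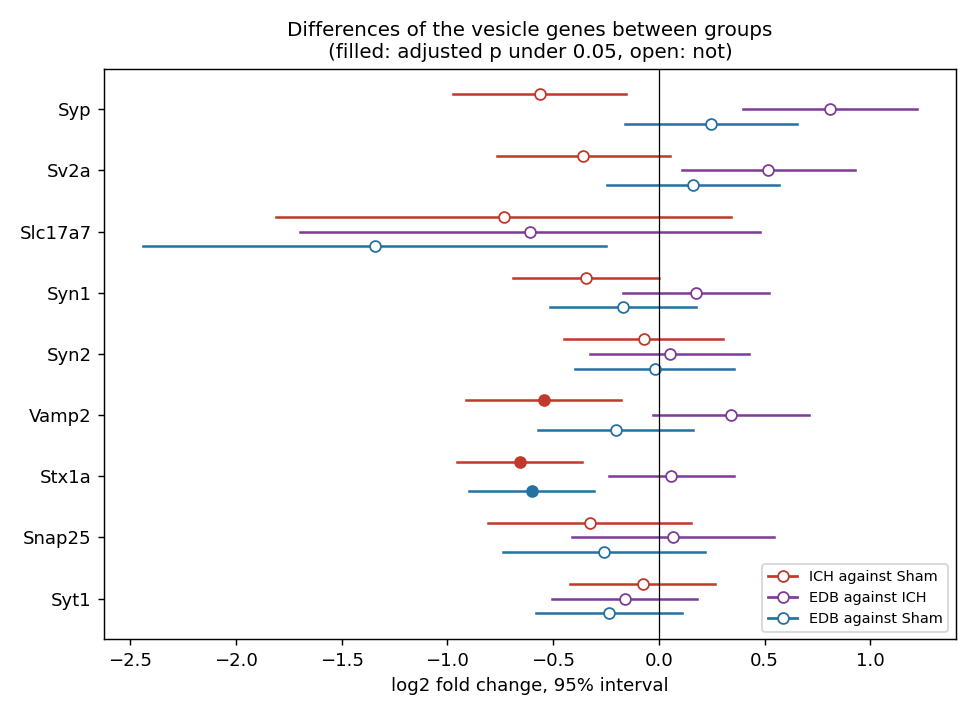
Fitted log2 fold change of each member (horizontal axis) with its 95% interval in ICH against Sham, EDB against ICH and EDB against Sham. Filled points are called; these are Vamp2 and Stx1a in ICH against Sham and Stx1a in EDB against Sham.

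Among the SNARE proteins, Stx1a, the plasma membrane syntaxin to which the vesicle protein binds, was lower in ICH and in EDB than in Sham. Its level was 35.8, 39.9 and 44.2 CPM in Sham replicates 1, 2 and 3, 26.1, 22.6 and 27.3 CPM in ICH and 27.7, 25.6 and 25.9 CPM in EDB. Every ICH and every EDB library lay below every Sham library, and the ICH and EDB libraries overlapped. The log2 fold change was -0.66 ± 0.13 (SE, n = 3 per group; adjusted p = 0.00616) in ICH against Sham, with a 95% interval from -0.95 to -0.36. This call held in all 18 alternative fits, at adjusted p values from 8.3e-05 to 0.0273. EDB against Sham was -0.60 ± 0.13 (adjusted p = 0.0212), a call that was lost without Sham replicate 3 (adjusted p = 0.0881), EDB replicate 1 (0.0636), EDB replicate 2 (0.0588) or EDB replicate 3 (0.0669). EDB and ICH differed by 0.06 on the log2 scale, with an interval from -0.24 to 0.36, and by 0.10 without Sham replicate 2 and EDB replicate 3.

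Vamp2, the vesicle's own SNARE protein, was at 600.3, 892.5 and 620.1 CPM in Sham, 462.4, 442.5 and 542.8 CPM in ICH and 650.5, 552.6 and 631.2 CPM in EDB. All ICH libraries were below all libraries of the other groups, and Sham replicate 2 was far above the rest. In ICH against Sham the log2 fold change was -0.55 ± 0.17 (adjusted p = 0.0434), a call near the threshold. It was lost in 10 of 18 alternatives. Without Sham replicate 2 the value was -0.34 (adjusted p = 0.0983). Leaving out ICH replicate 1 (0.126), ICH replicate 2 (0.127), EDB replicate 1 (0.0618), EDB replicate 2 (0.0522) or EDB replicate 3 (0.0594) also took the adjusted p past 0.05. Against ICH, EDB was higher by 0.34 ± 0.17 with adjusted p = 0.347 and an interval from -0.03 to 0.71.

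Snap25, the other SNARE protein of the plasma membrane, was not called. It was at 372.6, 309.4 and 464.0 CPM in Sham, 373.8, 250.7 and 289.2 CPM in ICH and 281.0, 417.4 and 258.9 CPM in EDB. The groups overlapped in all comparisons, and the spread within each was wide, with coefficients of variation of 20.3%, 20.7% and 26.9%. ICH against Sham was -0.33 ± 0.22 (adjusted p = 0.347), with an interval from -0.81 to 0.15, which includes the fitted values of Stx1a and Vamp2. The difference between the SNARE genes was not tested.

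Among the vesicle membrane proteins, Syp (synaptophysin), an abundant membrane protein that binds Vamp2, was lowest in ICH. Syp was at 446.5, 730.8 and 508.1 CPM in Sham, 368.8, 372.1 and 399.0 CPM in ICH and 788.9, 575.0 and 634.9 CPM in EDB. The 3 ICH libraries lay close together, with a coefficient of variation of 4.4%, below every Sham and EDB library, and Sham and EDB overlapped. ICH against Sham was -0.56 ± 0.19 and just missed the threshold (adjusted p = 0.0569), while DESeq2 called it (-0.60, adjusted p = 0.0159). Without Sham replicate 2 it was -0.33 (adjusted p = 0.151), and without Sham replicate 1 it was called at -0.75 (adjusted p = 0.0285). EDB against ICH was 0.81 ± 0.19 (adjusted p = 0.0757), with an interval from 0.40 to 1.22. That difference was called without Sham replicate 2 (0.81, adjusted p = 0.0272), and without both Sham replicate 2 and EDB replicate 3 (0.88, adjusted p = 0.0382). DESeq2 also called it (0.83, adjusted p = 0.00248).

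Sv2a, a vesicle glycoprotein and the binding site of the antiepileptic levetiracetam, was at 290.3, 474.4 and 314.2 CPM in Sham, 245.0, 301.1 and 296.3 CPM in ICH and 457.4, 382.4 and 367.1 CPM in EDB. The EDB libraries were all above the ICH libraries, and Sham overlapped both. EDB against ICH was 0.52 ± 0.19 (unadjusted p = 0.0177, adjusted p = 0.206). ICH against Sham was -0.36 ± 0.19 (adjusted p = 0.219), and -0.10 without Sham replicate 2.

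The synapsins tether vesicles to each other and to the cytoskeleton in the reserve pool. Syn1 was at 239.8, 350.1 and 298.9 CPM in Sham, 208.1, 234.5 and 257.0 CPM in ICH and 300.5, 249.0 and 240.6 CPM in EDB. ICH replicate 3 lay above Sham replicate 1, so the groups overlapped, and ICH against Sham was -0.35 ± 0.16 (adjusted p = 0.158), and -0.21 without Sham replicate 2. Syn2 was at 124.4, 154.5 and 132.9 CPM in Sham, 96.7, 138.9 and 156.3 CPM in ICH and 150.0, 126.7 and 129.3 CPM in EDB. ICH replicate 1 was the lowest library of Syn2 and ICH replicate 3 the highest. ICH against Sham was -0.07 ± 0.17 for Syn2 (adjusted p = 0.833), with an interval from -0.45 to 0.30, and 0.02 without Sham replicate 2.

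A neighbouring gene may bear on the synapsin counts. In RefSeq's GRCr8 annotation Timp1, an inhibitor of matrix metalloproteases, lies inside Syn1 on the opposite strand, and Timp4 lies likewise inside Syn2. Timp1 was at 1.9, 1.8 and 1.3 CPM in Sham, 49.5, 40.0 and 36.2 CPM in ICH and 22.1, 10.4 and 8.8 CPM in EDB, and it rose in ICH against Sham by 4.60 ± 0.37 on the log2 scale (adjusted p = 2.9e-05). These positions are whole gene spans, in a build other than that of the counts, and do not show whether exons overlap. The strand setting of the counting is not given in the sources used here. Whether reads from any stretch shared by Syn1 and Timp1 were counted for Syn1, for Timp1, for both or for neither is not known. Any effect of Timp1 reads on the Syn1 values was not tested. Timp4 was between 14.8 and 37.6 CPM in the 9 libraries and was called in 0 of the 3 comparisons.

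Syt1, the fast calcium sensor, was at 166.9, 151.2 and 156.2 CPM in Sham, 143.4, 143.4 and 163.3 CPM in ICH and 118.7, 171.3 and 112.8 CPM in EDB. Its range over the libraries was the narrowest of the 9 members, 1.52-fold. EDB replicate 2 was its highest library and EDB replicates 1 and 3 its lowest. ICH against Sham was -0.08 ± 0.16 (adjusted p = 0.802), with an interval from -0.42 to 0.27. EDB against Sham was -0.24 ± 0.16 (adjusted p = 0.412), and -0.12 without EDB replicate 3.

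The members therefore did not follow one order across the groups. The mean was lowest in ICH, intermediate in EDB and highest in Sham for 5 members, Syn1, Syn2, Snap25, Stx1a and Vamp2. For Syp and Sv2a it was lowest in ICH and highest in EDB, and for Syt1 and Slc17a7 it was lowest in EDB. Neighbouring groups in these orders were separated in every library for Vamp2 (ICH from EDB), Stx1a (EDB from Sham) and Syp (ICH from Sham), and for no other member. The first and last groups of an order were separated for Syp and Sv2a (ICH from EDB) and for Vamp2 and Stx1a (ICH from Sham).

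Within the groups, the members also split by library, a pattern picked out after their values were seen. After centring each gene's log2 CPM, Sham replicate 2 was at 0.50 for Syp, 0.48 for Sv2a, 0.60 for Vamp2 and 0.42 for Syn1, the highest Sham value of each. In the same library Snap25 was at -0.08 and Syt1 at 0.05, the lowest Sham value of each. EDB replicate 1 likewise held the highest EDB value of Syp (0.61), Sv2a (0.43), Vamp2 (0.15) and Syn1 (0.20), and there Snap25 was at -0.22 and Syt1 at -0.30. EDB replicate 2 held the highest EDB values of Snap25 (0.35) and Syt1 (0.23). It held the lowest EDB values of Syp (0.15) and Vamp2 (-0.09), but not of Sv2a and Syn1, which were lowest in EDB replicate 3 (0.11 and -0.12). The ranking of libraries within a group thus depended on the vesicle gene.

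**Figure D3:**
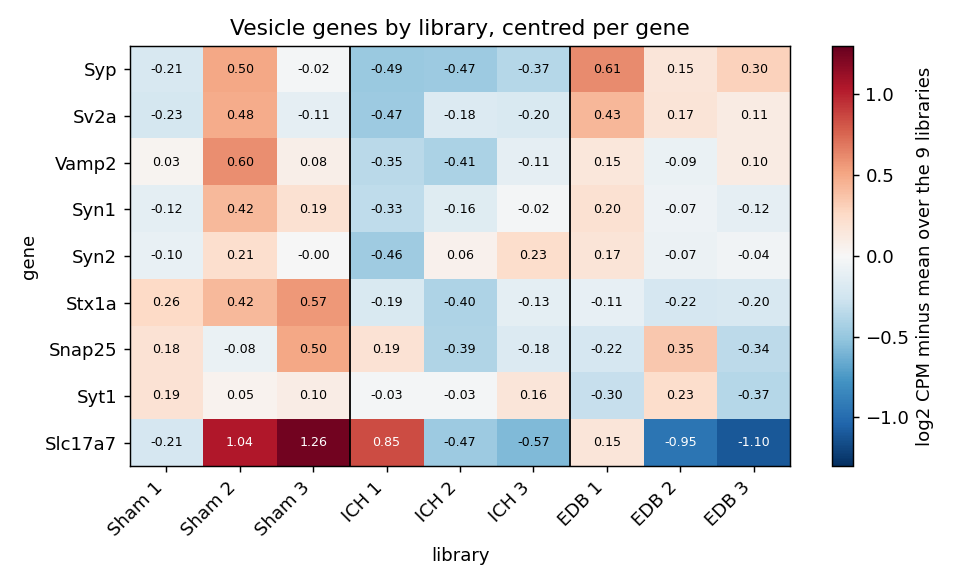
Each member's log2 CPM minus its mean over the 9 libraries (colour and printed value), with members in rows and libraries in columns, black lines between the groups. The column of Sham replicate 2 is high for Syp, Sv2a, Vamp2 and Syn1 and near 0 for Snap25 and Syt1, and Slc17a7 has the widest range, from -1.10 to 1.26.

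Slc17a7, which loads vesicles with glutamate and is the main such transporter of cortical neurons, varied most. It was at 21.0, 50.3 and 58.3 CPM in Sham, 44.0, 17.6 and 16.4 CPM in ICH and 27.1, 12.6 and 11.3 CPM in EDB, a range of 5.16-fold over the libraries, where the other 8 members ranged from 1.52-fold to 2.14-fold. The groups overlapped in all 3 comparisons. The largest fitted difference was EDB against Sham, -1.34 ± 0.49 (unadjusted p = 0.021, adjusted p = 0.132). ICH against Sham was -0.73 ± 0.48 (adjusted p = 0.345), with an interval from -1.81 to 0.34. In EDB against ICH it was -0.61 ± 0.49 (adjusted p = 0.579), 0.0028 without ICH replicate 1 and -0.39 without EDB replicate 3.

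Of 10 genes listed for cortical glutamatergic neurons, some were high in the same libraries as Slc17a7 and others were not; those named were chosen after their values were seen. Tbr1, a transcription factor of deep cortical layers, was at 2.1, 4.4 and 8.5 CPM in Sham, 3.0, 2.2 and 2.5 CPM in ICH and 4.0, 1.2 and 1.1 CPM in EDB. Neurod2, a transcription factor of excitatory cortical neurons, was at 2.6 CPM in Sham replicate 3, at 2.3 CPM in ICH replicate 1 and between 0.3 and 1.5 CPM in the other 7 libraries. Sham replicate 3 and ICH replicate 1 were also among the 3 libraries with most Slc17a7. Emx1, in contrast, was highest in ICH replicate 2 (3.8 CPM), Fezf2 in ICH replicate 3 (9.99 CPM) and Cux2 in EDB replicate 1 (25.9 CPM). Of 9 cortical genes tested, 5 lay above 0 and 4 below 0 in ICH against Sham, with a median of 0.18, and 0 were called. Over the whole list of 10 cortical genes, the summed level was 34.1 to 46.9 CPM in Sham, 35.7 to 50.8 in ICH and 31.8 to 45.5 in EDB. Neurod1 was at 0 in Sham replicate 1, ICH replicate 2 and EDB replicate 2. The part of cortical tissue in the Slc17a7 values was not tested.

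**Figure D4:**
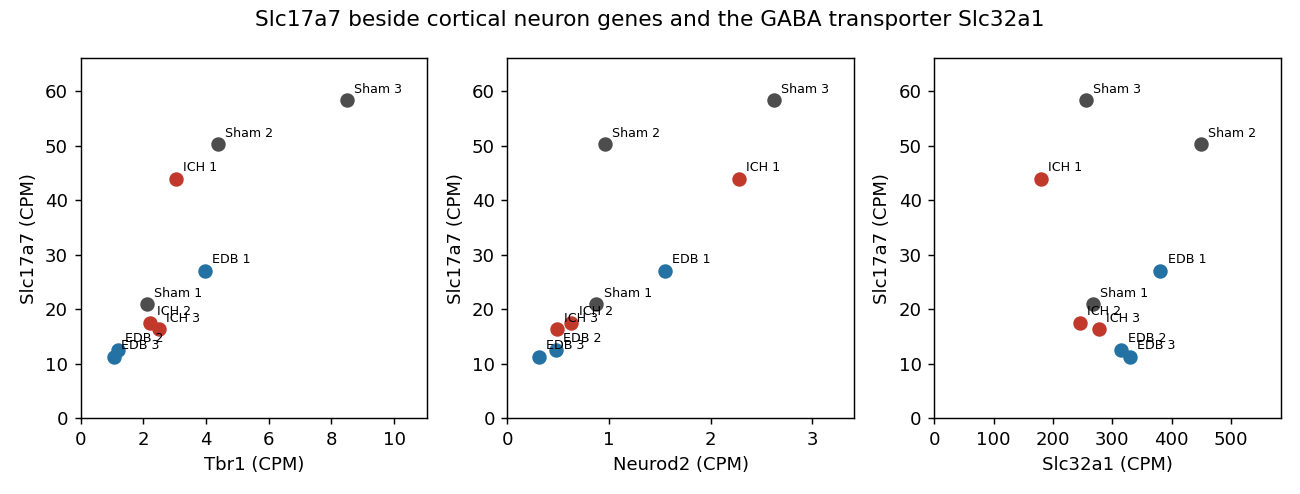
Slc17a7 in CPM (vertical axes) against Tbr1, Neurod2 and Slc32a1 in CPM (horizontal axes), 1 point per library, coloured by group. Sham replicates 2 and 3 and ICH replicate 1 are highest for Slc17a7, and of these only Sham replicate 2 is among the 3 highest for the GABA transporter Slc32a1.

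The other vesicular transporters gave a mixed picture. Slc32a1, which loads GABA and glycine, was at 267.5, 448.7 and 255.4 CPM in Sham, 179.0, 245.0 and 277.5 CPM in ICH and 381.0, 314.7 and 329.8 CPM in EDB, with ICH against Sham at -0.47 ± 0.22 (adjusted p = 0.18), and at -0.16 without Sham replicate 2. Slc17a8, the glutamate transporter that striatal cholinergic interneurons carry, fell in ICH against Sham by 1.37 ± 0.21 on the log2 scale (adjusted p = 0.00114). Its level was 17.4 to 25.5 CPM in Sham, 7.5 to 8.4 CPM in ICH and 4.5 to 6.1 CPM in EDB. Slc17a8 also fell in EDB against Sham, by 1.88 ± 0.22 (adjusted p = 0.000787). Slc17a9, a nucleotide transporter, rose in ICH from 2.1 ± 0.3 to 6.2 ± 1.0 CPM (SD, n = 3; log2 fold change 1.56 ± 0.29, adjusted p = 0.00395). Slc17a6, the glutamate transporter of thalamic neurons, was at 0.2 CPM or less in every library and was not tested.

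The wider release machinery was described with 6 further lists, 82 tested genes in all, none of them members. In ICH against Sham 15 of 82 were called lower, which is 18.3% where 7.3% of all genes were, and 2 were called higher. Of the 82, 67 had a log2 fold change below 0 (81.7%), with a median of -0.30. Without Sham replicate 2 and EDB replicate 3 the counts were 17 lower and 3 higher. In EDB against ICH 0 of 82 were called, and 22 were at an unadjusted p under 0.05 (26.8%, where 16.2% of all genes were). DESeq2 called 4, where it called 696 over all genes, and limma-voom 1, where it called 187. By edgeR 4 were called without Sham replicate 2 (321 over all genes), 2 without Sham replicate 2 and EDB replicate 3 (161), and 1 with only the 6 libraries compared (110). All of these were higher in EDB. Of the 82, 6 were called lower in EDB than in Sham and 1 higher (7.32% and 1.22%), where 2.71% of all genes were called lower, 4.95% higher and 7.66% in either direction. Without the same pair of libraries 3 were lower and 3 higher.

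Of 18 SNARE partners and priming factors tested, 4 fell in ICH against Sham and 0 rose, where 7.3% of all genes were called lower and 11.4% higher. The list median was -0.33. Cplx2, the paralog of Cplx1, was at 887.8, 1010.6 and 1003.8 CPM in Sham, 369.2, 389.5 and 517.6 CPM in ICH and 651.2, 529.9 and 541.2 CPM in EDB. The 3 groups of Cplx2 did not overlap, with EDB in between. It fell by 1.18 ± 0.16 in ICH (adjusted p = 0.000409) and by 0.75 ± 0.15 in EDB against Sham (adjusted p = 0.0138). Unc13a (Munc13-1), which opens syntaxin for SNARE assembly, was at 226.0, 314.9 and 268.5 CPM in Sham, 113.9, 131.8 and 135.8 CPM in ICH and 168.9, 175.4 and 158.0 CPM in EDB. Its groups were likewise separate, and it fell by 1.09 ± 0.14 in ICH (adjusted p = 0.000322). Doc2b, a calcium sensor of spontaneous and asynchronous release, fell by 1.10 ± 0.22 (adjusted p = 0.00605). Without Sham replicate 2 and EDB replicate 3, Cadps2 and Unc13c were also called lower and Cplx3 higher.

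The EDB group differed from Sham in the same list at 4 genes, Unc13a, Cplx2, Doc2b and Cadps2, all lower, where 2.71% of all genes were called lower. Cadps2, a priming factor of dense-core vesicles, was at 9.7 ± 2.7 CPM in Sham, 5.9 ± 0.8 in ICH and 3.3 ± 0.6 in EDB (SD, n = 3), and fell in EDB against Sham by 1.54 ± 0.27 (adjusted p = 0.00633). Of these 4 calls, Cadps2 alone held without Sham replicate 2 and EDB replicate 3. The Cplx2 call was lost without Sham replicate 3 (adjusted p = 0.0528), EDB replicate 2 (0.0523) or EDB replicate 3 (0.0539), and the Unc13a call without EDB replicate 1 (0.0519). Doc2b lost its call without Sham replicate 1 (0.0618), Sham replicate 3 (0.0931), EDB replicate 1 (0.0974) or EDB replicate 3 (0.0719).

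Of 17 active zone genes, 5 fell in ICH against Sham and 0 rose, where 7.3% of all genes were called lower and 11.4% higher. The list median was -0.24, and -0.41 without Sham replicate 2. Lin7b, a small scaffold protein, fell by 1.17 ± 0.15, from 90.0 ± 14.5 to 40.1 ± 4.5 CPM (SD, n = 3; adjusted p = 0.000324). Bsn (bassoon), the giant scaffold of the active zone, was at 226.0, 382.3 and 293.6 CPM in Sham, 122.3, 175.9 and 174.0 CPM in ICH and a mean of 182.8 ± 17.8 CPM (SD, n = 3) in EDB, and fell by 0.93 ± 0.20 in ICH (adjusted p = 0.00781). Rimbp2, which links calcium channels to the release site, fell by 0.64 ± 0.12 (adjusted p = 0.00484). Ppfia3 (liprin) fell by 0.62 ± 0.13 and the adaptor Apba1 by 0.52 ± 0.14 (adjusted p = 0.00711 and 0.0273). Lin7b was called lower in EDB against Sham too (-0.59 ± 0.15, adjusted p = 0.0338), and leaving out 5 of the single libraries ended that call: Sham replicate 2 (0.0607), Sham replicate 3 (0.0805), ICH replicate 2 (0.0528), EDB replicate 1 (0.129) and EDB replicate 3 (0.106).

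Of 12 other synaptotagmins, Syt7 and Syt12 fell in ICH against Sham and 0 rose, where 7.3% of all genes were called lower and 11.4% higher. The list median was -0.40. Syt7, a slow high-affinity calcium sensor, was at 110.0 ± 12.7 CPM in Sham and 67.6 ± 8.6 in ICH (SD, n = 3; log2 fold change -0.70 ± 0.16, adjusted p = 0.0103). Syt12 was at 53.6 ± 13.0 and 27.4 ± 3.5 CPM (-0.97 ± 0.19, adjusted p = 0.00475). Syt2, a fast sensor like Syt1, was at 43.1, 99.7 and 41.3 CPM in Sham, 28.9, 31.8 and 28.5 CPM in ICH and 98.1, 69.4 and 45.5 CPM in EDB. Its ICH libraries were the lowest, and the difference between EDB and ICH, 1.26 ± 0.35, had adjusted p = 0.118, and 0.0353 without Sham replicate 2.

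Of 18 further vesicle membrane genes, Rph3a and Svop fell in ICH against Sham and 0 rose, where 7.3% of all genes were called lower and 11.4% higher. The list median was -0.42, and -0.24 without Sham replicate 2. Rph3a (rabphilin), an effector of the vesicle GTPase Rab3, was at 355.5, 698.3 and 434.5 CPM in Sham, 288.7, 245.5 and 232.3 CPM in ICH and 281.7, 332.9 and 299.6 CPM in EDB. It fell by 0.96 ± 0.22 in ICH (adjusted p = 0.0105), and by 0.63 without Sham replicate 2 (adjusted p = 0.0125). Svop, a transporter-like vesicle protein related to the SV2 family, fell by 0.66 ± 0.17 (adjusted p = 0.0194), a call that was lost without Sham replicate 2 (0.0524) or ICH replicate 1 (0.0772). Vamp1, the paralog of Vamp2, was at 129.0, 211.4 and 175.1 CPM in Sham, 120.1, 102.7 and 127.2 CPM in ICH and 287.2, 196.6 and 197.4 CPM in EDB. Like Syp, Vamp1 was lowest in ICH in every library and its EDB against ICH difference missed the threshold (0.96 ± 0.20, adjusted p = 0.0609). It was called without Sham replicate 2 (adjusted p = 0.0351), by limma-voom (0.0498) and by DESeq2 (0.000733).

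Of 12 vesicle recycling genes tested, 1 was called lower in ICH against Sham and 1 higher, where 7.3% of all genes were called lower and 11.4% higher. Pacsin1, an adaptor of endocytosis, fell (-0.82 ± 0.14, adjusted p = 0.00236) and Clta, a clathrin light chain, rose (0.50 ± 0.14, adjusted p = 0.0309). The list median was -0.09, and 0.0087 with libraries scaled by totals alone. The Clta call was lost without any one of 5 libraries: Sham replicate 1 (0.148), Sham replicate 3 (0.11), ICH replicate 1 (0.0572), ICH replicate 2 (0.14) or ICH replicate 3 (0.0651).

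**Figure D5:**
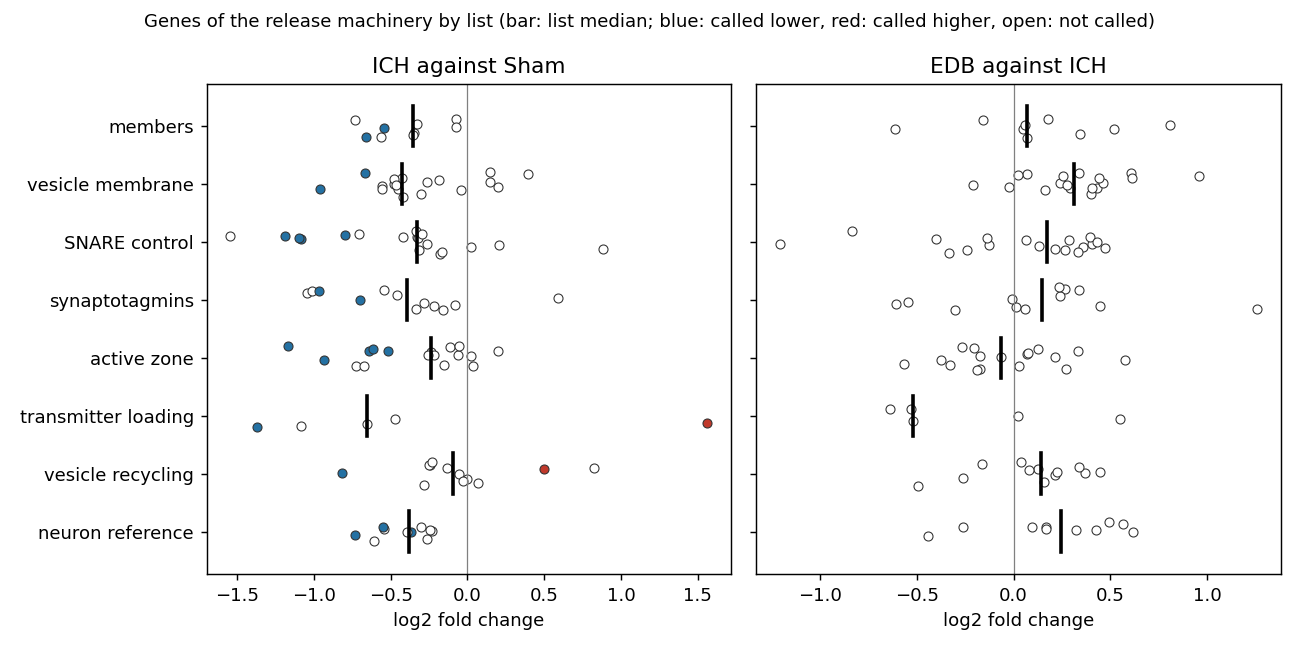
Log2 fold change (horizontal axes) of every tested gene of the members, the 6 release lists and the neuron reference list, in ICH against Sham and EDB against ICH. Points are genes, blue called lower, red called higher, open not called, and the bar is the list median; in ICH against Sham all 8 medians lie below 0 (with libraries scaled by totals alone, that of vesicle recycling was 0.0087), and in EDB against ICH no gene is called.

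General neuron genes that are not vesicle proteins were lower in ICH as well. Of 10 tested, Rbfox3, Tubb3 and Stmn2 were called lower in ICH against Sham and 0 higher, where 7.3% of all genes were called lower and 11.4% higher. All 10 were below 0 and the median was -0.38, next to -0.36 for the vesicle family. Rbfox3 (NeuN), a splicing factor of neuronal nuclei, fell from 354.0 ± 79.6 to 212.7 ± 25.7 CPM (SD, n = 3; adjusted p = 0.00946). The Tubb3 and Stmn2 calls were lost in 8 and 13 of 18 alternatives, among them the fit without Sham replicate 2 (-0.33, adjusted p = 0.0618, and -0.29, adjusted p = 0.107). The mean log2 CPM of the 10 genes was 7.56, 7.69 and 7.62 in Sham, 7.27, 7.06 and 7.27 in ICH and 7.42, 7.52 and 7.36 in EDB. By this measure the 3 groups did not overlap. Their summed level was 3416 to 4921 CPM in Sham, 2640 to 3292 in ICH and 3663 to 4215 in EDB, so by the sum Sham and EDB overlapped. The summed levels of the immune and astrocyte lists separated the groups too, the astrocyte sum largely through Gfap. The summed level of 9 microglia and macrophage genes was 445 to 526 CPM in Sham, 2148 to 2259 in ICH and 1002 to 1802 in EDB, and 8 of 9 were called higher in ICH against Sham. That of 8 astrocyte genes was 3554 to 4259 CPM in Sham, 8362 to 8522 in ICH and 5707 to 6638 in EDB, with 2 called higher (Gfap and Gja1) and 1 lower (Aldoc) in ICH against Sham. Gfap alone was at 484.3 ± 73.2 CPM in Sham, 4917.7 ± 329.2 in ICH and 3234.3 ± 491.1 in EDB (SD, n = 3). In ICH against Sham 3 of the 8 astrocyte genes lay below 0. The 8 oligodendrocyte genes summed to 17147 to 28117, 16564 to 32965 and 38828 to 44342 CPM, so Sham and ICH overlapped and 0 of 8 were called between them. Their part in the vesicle gene values was not tested.

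Set against the neuron reference within each library, the members' differences between groups took other forms. Stx1a minus the reference was -2.31 ± 0.13 log2 units in Sham, -2.54 ± 0.04 in ICH and -2.71 ± 0.12 in EDB (SD, n = 3), and the Sham libraries stayed above all others. For Vamp2 it was 1.81 ± 0.26, 1.71 ± 0.12 and 1.82 ± 0.20, so that the groups differed by less than the spread within them. Syp minus the reference was 1.48 ± 0.30 in Sham, 1.37 ± 0.11 in ICH and 1.93 ± 0.28 in EDB. Its EDB libraries lay between 1.65 and 2.20, above the ICH libraries at 1.25 to 1.48 and overlapping Sham. Syt1 minus the reference was at -0.32 ± 0.14 in Sham, 0.03 ± 0.12 in ICH and -0.39 ± 0.25 in EDB. Its ICH libraries lay between -0.11 and 0.10, above the Sham libraries at -0.45 to -0.18, and EDB overlapped both. In Sham, ICH and EDB the means were 0.57, 0.66 and 0.60 for Syn1, -0.53, -0.20 and -0.36 for Syn2 and 0.93, 1.03 and 0.85 for Snap25. They were 0.83, 0.93 and 1.21 for Sv2a and -2.32, -2.66 and -3.46 for Slc17a7. For Syn1, Syn2, Snap25, Sv2a and Slc17a7 the Sham and ICH libraries overlapped. No test was made on these differences, and their absolute size depends on gene length.

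The 5 genes with the profile nearest to the mean of the members, among 10877 genes with a mean of at least 5 CPM, were Lmo3, Rabl6, Fbxw2, Mapk10 and Lrig1. Likeness was the root mean square distance of centred log2 CPM over the 9 libraries, and it ran from 0.07 for Lmo3 to 0.09 for Lrig1. Among the members Syn1 was nearest to that mean (0.10) and Slc17a7 farthest (0.69). Lmo3, a LIM domain protein, was at 125.5, 161.8 and 146.0 CPM in Sham, 103.6, 96.6 and 122.2 CPM in ICH and 138.8, 123.8 and 111.0 CPM in EDB. Of the 5, Rabl6 was called lower in ICH against Sham (-0.45 ± 0.12, adjusted p = 0.0194), and 0 were called in EDB against ICH, where their values ran from 0.03 to 0.28.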

How the data were processed

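Read counts per gene were deposited by the authors, 1 file per library, as whole numbers with no normalization, for 9 libraries of total RNA from rat striatal tissue. Per the submitters' processing notes, cutadapt, HISAT2, HTSeq and limma were used on the rat build Rnor_6.0; their versions, roles, annotation and strand setting were not given in the sources used here. Analyses ran in R 4.3.3 and edgeR 4.0.16. A filter on low counts (filterByExpr by group) was applied, libraries were scaled by TMM, and all 9 libraries entered 1 quasi-likelihood model (glmQLFit, robust) with a mean per group. P-values were adjusted by Benjamini and Hochberg's method across the 14274 genes tested and called under 0.05. SE values and 95% intervals belong to the fitted log2 differences. Centred log2 CPM used a prior count of 2. The pipeline was tested on simulated data. DESeq2 1.42.0, limma 3.58.1 (voom), other scalings and filters, a replicate block and leaving out libraries were alternatives.

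The members, lists and tests were chosen with earlier results of these data known. All members are named in every comparison. From each list the text takes up to 4 genes with the smallest p in ICH against Sham and up to 2 in EDB against ICH, and the 5 genes nearest to the members' mean profile. Apba1, Cplx3, Unc13c, Slc17a6, the single cortical and astrocyte genes and the Timp genes were named after their values were seen. GRCr8 promoters and gene positions are RefSeq's. Of the gene IDs, 16799 matched a symbol there. The build differs from that of the counts, so coordinates serve only the sequences and the placing of the Timp genes. Some genes of the lists enter the counts but are not reported here by name.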

Additional observations from a re-analysis of the deposited data

How the results depend on the processing

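Of 27 results on single members under 18 alternatives (486 values), 443 kept their direction and side of the threshold, 16 lost a call, 6 gained one and 21 reversed. The members called in ICH against Sham were 2, and 1 with library size only, with the replicate block, with the 6 libraries compared only, and without Sham 2 and EDB 3 (an alternative added after seeing the data). They were 0 with a log2 fold change above 1 required, 1 at adjusted p under 0.01, and 1 to 3 leaving out 1 library. In EDB against ICH the count of 0 became 1 with DESeq2, with 6 libraries and without Sham 2 and EDB 3, and 0 to 1 leaving out 1 library; each time the gene was Syp. In EDB against Sham the count of 1 became 0 with the replicate block, without Sham 2 and EDB 3, with the fold minimum and at adjusted p under 0.01, and 0 to 1 leaving out 1 library. The cause was not tested, beyond the smaller number of samples when libraries were left out.

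Over all genes, the count called in ICH against Sham was 2670, against 1189 with the fold minimum, 1360 at adjusted p under 0.01 and 1769 to 2624 leaving out 1 library (lowest without ICH 1). In EDB against ICH the count was 98, against 696 with DESeq2, 187 with limma-voom, 58 with the replicate block, 161 without Sham 2 and EDB 3, 5 at adjusted p under 0.01, and 8 (without ICH 2) to 321 (without Sham 2) leaving out 1 library. In EDB against Sham it was 1094, against 1796 with DESeq2, 528 with the fold minimum, 416 at adjusted p under 0.01 and 508 (without EDB 1) to 1661 (without Sham 2).

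Log2 fold changes that reversed were all uncalled. With library size only, Syn2 was at 0.035 and Syt1 at 0.019 in ICH against Sham, Syn2 at -0.027 and Stx1a at -0.013 in EDB against ICH, and Syn2 at 0.0088 in EDB against Sham. Without Sham 2 and EDB 3, Syn2 was at 0.011 in ICH against Sham, and Syn1 at 0.051, Syn2 at 0.13 and Vamp2 at 0.0018 in EDB against Sham. Leaving out 1 library, the ranges that crossed 0 were -0.22 to 0.11 for Syn2 in ICH against Sham. In EDB against ICH they were -0.13 to 0.20 for Syn2, -0.17 to 0.24 for Snap25, -0.0061 to 0.12 for Stx1a and -1.12 to 0.0028 for Slc17a7. In EDB against Sham they were -0.099 to 0.076 for Syn2 and -0.32 to 0.0050 for Vamp2. The replicate numbers shared no common deviation: libraries of the same number correlated at -0.31 to 0.25 and those of other numbers at -0.23 to 0.33, and 4 of 18 best partners shared a number. With the replicate block, Vamp2 in ICH against Sham (-0.54, adjusted p = 0.0859) and Stx1a in EDB against Sham (-0.60, adjusted p = 0.0526) lost their calls, and Stx1a in ICH against Sham kept its own (-0.66, adjusted p = 0.0179). With 3 libraries per group, the printed intervals set what could be detected.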
